A study of Mus musculus with 8 samples.

Results

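The secreted Wnt modulators examined here are 10 genes for proteins that cells release to carry or to block Wnt signals. They are the 5 Frizzled-related proteins Sfrp1, Sfrp2, Sfrp4, Sfrp5 and Frzb, the inhibitor Wif1, the Dickkopf proteins Dkk2 and Dkk3, and the ligands Wnt5a and Wnt9a. They were taken by gene name, and each name had 1 row among the 55679 genes of the table. Polyadenylated RNA of the left ventricle was sequenced in 8 male wild-type C57BL/6J mice. Of these, 4 received saline (control) and 4 received angiotensin II (ANG II, the effector peptide of the renin-angiotensin system, which constricts vessels) at 1500 ng/kg/min, both through an osmotic minipump for 7 days. The age of the mice was not given in the sources used here, and the ventricle was taken as bulk tissue after the heart had been flushed with saline. The libraries held 14455655 to 16564830 fragments as read from the steps of their values, and expression is given as FPKM, a fragment count divided by transcript length and by the depth of the library.

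Wnt ligands bind Frizzled receptors and the co-receptors Lrp5 and Lrp6, which stabilises β-catenin and switches on target genes, while other ligands, Wnt5a among them, mainly act through Ror receptors, planar cell polarity and calcium. Frizzled-related proteins carry the Wnt-binding domain of the receptors without a membrane anchor and so hold ligands outside the cell, and Wif1 also binds ligands directly. Classical Dickkopf proteins such as Dkk2 bind the Lrp co-receptors, whereas Dkk3 is a divergent relative. In the heart these proteins are best known from fibroblasts, valves and scar tissue.

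The question was which of these genes change in the left ventricle when ANG II is infused. Of the 10 genes, 4 rose and 0 fell past the thresholds (adjusted p under 0.05 by limma with Benjamini-Hochberg adjustment over all 19364 genes tested, and a log2 fold change beyond 0.5). Of all genes tested, 14.0% were called higher, 1.41% were called lower and 15.4% were called in either direction. By limma without the fold threshold, 5 of the 10 had an adjusted p-value under 0.05, against 33.3% of all genes, and the groups did not overlap at 6 of the 10, against 33.7%, or at 5 without Dkk2, whose groups were 1 fragment apart at their closest. All 10 passed the filter on low values, a mean of 0.1 FPKM over all libraries, but Dkk2 and Sfrp4, with control means of 0.0862 and 0.0981 FPKM, passed only through their ANG II values. The genes that rose were Sfrp1, Sfrp2, Frzb and Dkk3, and their log2 fold changes ranged from 1.74 to 2.92, whereas those of the other 6 lay between -0.38 and 0.25. These are differences in log2(FPKM + 1), a scale that compresses low genes: the ratio of mean FPKM was 3.42 for Dkk2, at far fewer fragments, and 3.31 for Dkk3. The median log2 fold change was 0.20 over the 10 genes and 0.15 over all genes. The first value is set by Sfrp4 (0.15) and Dkk2 (0.25), which passed the filter only through their ANG II values. Its nearness to the second thus says little of the other members. In bulk tissue, more or fewer cells of a type and more or less RNA per cell cannot be told apart.

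**Figure D1:**
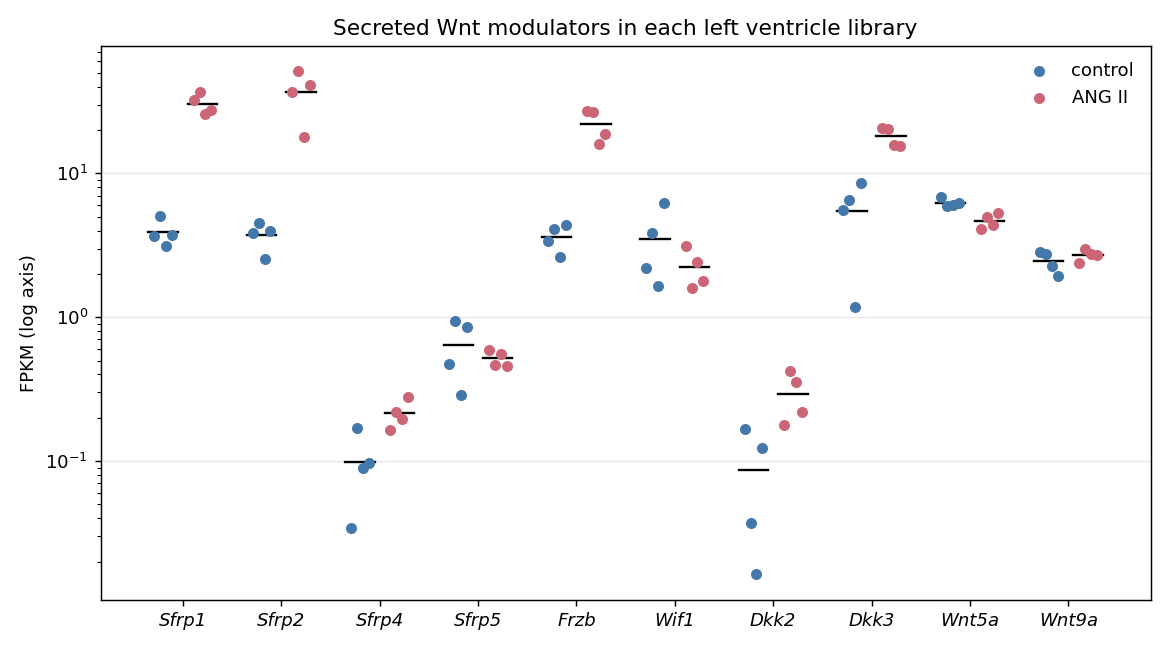
FPKM on a log axis of each of the 10 genes in every library, 4 control (blue) and 4 ANG II (red), with a black line at each group's mean. Points run from replicate 1 on the left to replicate 4 on the right. At Sfrp1, Sfrp2, Frzb and Dkk3 all ANG II points lie above all control points, and Sfrp4 and Dkk2 stay under 0.5 FPKM in every library.

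RefSeq windows upstream of the transcription start (GRCm38.p6, 250 bases, plus strand of the gene, 5′ to 3′) were found for 6 of the 10 genes. Those of Sfrp2, Sfrp5 and Dkk2 are shown, since they set the gene with the largest change beside a family member that was not called and beside Dkk2, which was called under 1 alternative only. Capitals mark matches, on either strand, to the short motifs named after the sequences.
Sfrp2, chr3:83766071-83766320, plus strand: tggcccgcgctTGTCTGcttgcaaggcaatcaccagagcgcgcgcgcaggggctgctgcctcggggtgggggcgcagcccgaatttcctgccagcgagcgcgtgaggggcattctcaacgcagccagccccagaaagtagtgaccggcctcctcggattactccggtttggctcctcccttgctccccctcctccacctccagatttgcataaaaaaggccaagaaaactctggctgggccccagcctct
Sfrp5, chr19:42202253-42202502, minus strand: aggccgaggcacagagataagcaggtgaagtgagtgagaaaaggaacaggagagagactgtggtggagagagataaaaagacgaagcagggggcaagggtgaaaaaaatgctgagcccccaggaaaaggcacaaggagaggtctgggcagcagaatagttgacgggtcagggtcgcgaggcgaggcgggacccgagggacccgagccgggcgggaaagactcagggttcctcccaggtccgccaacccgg
Dkk2, chr3:132085042-132085291, plus strand: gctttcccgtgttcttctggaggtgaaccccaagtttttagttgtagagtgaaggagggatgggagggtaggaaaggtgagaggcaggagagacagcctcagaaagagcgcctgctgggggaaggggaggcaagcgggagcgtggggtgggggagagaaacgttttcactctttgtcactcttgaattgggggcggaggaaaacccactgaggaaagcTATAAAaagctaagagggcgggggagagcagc
Searches were made on both strands, and no match in these windows overlapped another. The SMAD motif CAGACA matched the Sfrp2 window on its minus strand, starting 239 bases before the start site, and 17.1% of all 32851 windows hold it. The TATA box, searched as TATAAA, matched the Dkk2 window at 32 bases before the start, and 12.4% of all windows hold it. The TCF/LEF core motif CTTTGA is held by 13.8% of all windows, the AP-1 motif TGANTCA by 6.75% and the TEAD motif GGAATG by 12.6%, and these 3 had no match in the windows shown. The Sfrp5 window held no match to any of the 5 motifs. The windows of Frzb, Wif1 and Wnt9a overlap the GENCODE span of their own gene and are not shown or described. Sfrp2 had a GC content of 63.6% with 16 CpG, Sfrp5 of 59.6% with 13 CpG and Dkk2 of 55.6% with 7 CpG, against a median of 52.4% and 6 CpG over all windows. A match describes letters and is not evidence of binding.

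Among the Frizzled-related proteins, Sfrp1, Sfrp2 and Frzb rose together by 6.10 to 9.87 times in mean FPKM, and Sfrp4 and Sfrp5 did not pass the test. Sfrp1 (ENSMUSG00000031548, chromosome 8, 23411502 to 23449632, plus strand, GRCm38) was at 3.66, 5.06, 3.15 and 3.75 FPKM in control libraries 1 to 4 and at 32.0, 36.5, 25.7 and 27.7 FPKM in ANG II libraries 1 to 4. The lowest ANG II library was thus far above the highest control. Its mean went from 3.90 ± 0.815 to 30.5 ± 4.80 FPKM (SD, n = 4 each), 7.82 times as high. The log2 fold change was 2.69 with an SE of 0.136 (limma adjusted p = 3.1e-06). Among all genes tested it ranked 40 by log2 fold change.

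Sfrp2 (ENSMUSG00000027996, chromosome 3, 83766321 to 83774316, plus strand), a Wnt-binding protein also known to act on collagen processing, measured 3.82, 4.54, 2.55 and 3.94 FPKM in control libraries 1 to 4 and 36.5, 51.3, 17.7 and 41.1 FPKM in ANG II libraries 1 to 4. It had the largest change of the 10 genes and also a wide spread under ANG II, where library 3 stood well under the other 3. Its mean went from 3.71 ± 0.839 to 36.6 ± 14.0 FPKM (SD, n = 4 each), and its log2 fold change was 2.92 with an SE of 0.279 (limma adjusted p = 6.8e-05), rank 29 of all genes. A noncoding gene of the opposite strand, Gm26771, covers 16.1% of its exon length and shares 12.0% of its 50-base words, and no source used here says if reads were counted by strand. That gene was at 0 in every control library and at no more than 0.122 FPKM under ANG II.

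Frzb (ENSMUSG00000027004, chromosome 2, 80411970 to 80447625, minus strand), first described in cartilage and also called Sfrp3, was at 3.41, 4.10, 2.64 and 4.37 FPKM in control. Under ANG II it was at 27.3, 26.6, 15.9 and 18.7 FPKM, with no overlap and with library 3 again the lowest. The mean went from 3.63 ± 0.773 to 22.1 ± 5.68 FPKM (SD, n = 4 each), and its log2 fold change was 2.30 with an SE of 0.184 (limma adjusted p = 2.55e-05).

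Sfrp4 (ENSMUSG00000021319, chromosome 13, 19623104 to 19632994, plus strand) was close to the limit of the data, with 1 to 5 fragments per control library and 5 to 9 per ANG II library. The control libraries held 0.0344, 0.170, 0.0901 and 0.0976 FPKM and the ANG II libraries 0.164, 0.218, 0.197 and 0.280 FPKM, and 1 control exceeded the lowest ANG II library. Summed over libraries, 12 control and 27 ANG II fragments gave a ratio of 2.2 (exact 95% interval 1.08 to 4.78), an interval that covers counting error only. The log2 fold change was 0.15 (95% interval -0.04 to 0.33, limma adjusted p = 0.201). Since Sfrp4 passed the filter only through the group in which it was higher, these values are a description.

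Sfrp5 (ENSMUSG00000018822, chromosome 19, 42197971 to 42202252, minus strand), a Wnt inhibitor known from fat tissue, measured 0.473, 0.937, 0.286 and 0.860 FPKM in the controls and 0.590, 0.462, 0.557 and 0.461 FPKM in the ANG II mice. The ANG II values lay within the control range, and the 9 to 26 fragments per library leave a wide error. Its log2 fold change was -0.09 (95% interval -0.40 to 0.22, limma adjusted p = 0.653), an interval that lies below the change of Sfrp1, Sfrp2 or Frzb.

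**Figure D2:**
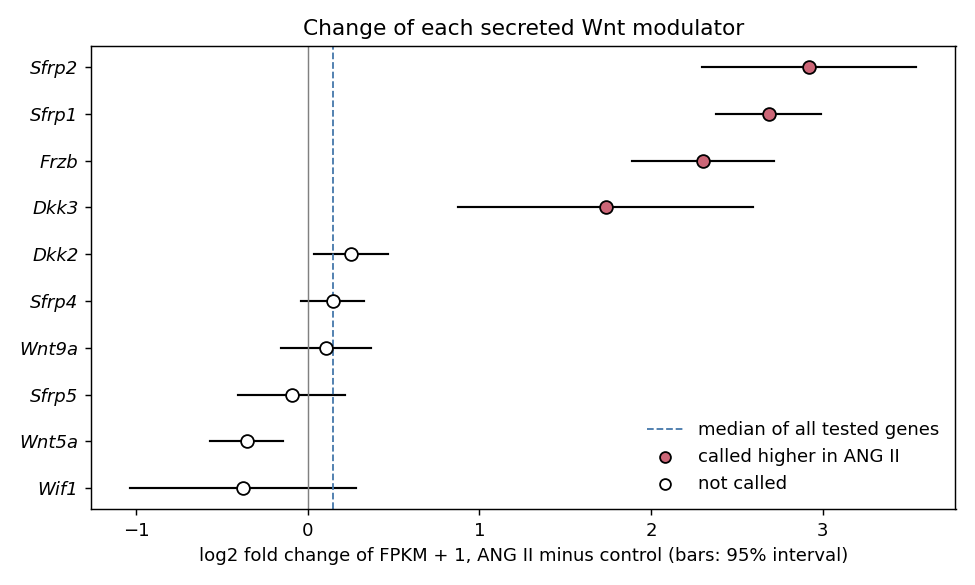
Log2 fold change of FPKM + 1 between ANG II and control for each of the 10 genes, with 95% intervals from limma (n = 4 in each group). Filled points were called higher. The 4 called genes lie from 1.74 to 2.92, and the dashed line at 0.15 is the median of all genes tested.

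Of the Dickkopf genes, Dkk3 rose and Dkk2 was not called. Dkk3 (ENSMUSG00000030772, chromosome 7, 112116017 to 112159057, minus strand) measured 5.54, 6.50, 1.19 and 8.58 FPKM in the controls and 20.5, 20.5, 15.7 and 15.5 FPKM in the ANG II mice. Control library 3 lay far under the other controls, and the groups did not overlap. The mean went from 5.45 ± 3.12 to 18.0 ± 2.83 FPKM (SD, n = 4 each), 3.31 times as high. The log2 fold change was 1.74 with an SE of 0.385 (limma adjusted p = 0.00666), and without control 3 it was 1.28 with an SE of 0.155 (limma adjusted p = 7.61e-04).

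Dkk2 (ENSMUSG00000028031, chromosome 3, 132085292 to 132180304, plus strand), which blocks the Lrp co-receptors, measured 0.168, 0.0370, 0.0163 and 0.124 FPKM in the controls and 0.178, 0.423, 0.357 and 0.220 FPKM in the ANG II mice. The groups did not overlap, but the gap was between 9 fragments in the highest control and 10 in the lowest ANG II library. Its log2 fold change of 0.25 (95% interval 0.03 to 0.47, limma adjusted p = 0.0729) is on a scale that compresses low values. Summed over libraries, 19 control and 68 ANG II fragments gave a ratio of 3.51 (exact 95% interval 2.08 to 6.17, counting error only). With limma-voom on the recovered fragments, Dkk2 was past both thresholds, with a log2 fold change of 2.02 (adjusted p = 0.0154), beside 2.07 for Dkk3 and 1.13 for Sfrp4 (adjusted p = 0.0898). Since Dkk2 passed the filter only through the group in which it was higher, its difference is given as a description.

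Wif1 (ENSMUSG00000020218, chromosome 10, 121033960 to 121100650, plus strand), a secreted protein that holds Wnt ligands through its WIF domain, was not called. It measured 2.19, 3.85, 1.64 and 6.21 FPKM in the controls and 3.15, 1.61, 2.43 and 1.79 FPKM in the ANG II mice, so that the spread among controls, 59.1% of their mean, was larger than the difference between groups. The log2 fold change was -0.38 (95% interval -1.03 to 0.28, limma adjusted p = 0.364), and without control 4, the highest library, it was -0.11 (adjusted p = 0.769). A fall or a small rise could not be told apart at this spread.

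The ligands moved little. Wnt5a (ENSMUSG00000021994, chromosome 14, 28504750 to 28527448, plus strand), the main ligand of the β-catenin-independent branch, measured 6.88, 5.91, 6.03 and 6.22 FPKM in the controls and 4.11, 4.98, 4.38 and 5.27 FPKM in the ANG II mice. All 4 ANG II libraries were under all controls, as 5.06% of all genes were, and the means were 6.26 ± 0.431 and 4.69 ± 0.530 FPKM (SD, n = 4 each). The log2 fold change, -0.36 with an SE of 0.0944 (limma adjusted p = 0.0162), passed the p-value threshold but not the fold threshold. Without control 3 and ANG II 3 the limma adjusted p was 0.0705. Relative to the median of all genes it was -0.50, and Wnt5a was called lower after median-of-ratios scaling (-0.54, adjusted p = 0.00196) and quantile normalization (-0.67, adjusted p = 8.92e-04).

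Wnt9a (ENSMUSG00000000126, chromosome 11, 59306928 to 59333552, plus strand), a ligand known from the developing heart valves and joints, was at 2.83, 2.76, 2.26 and 1.93 FPKM in control. Under ANG II it was at 2.38, 2.97, 2.73 and 2.70 FPKM, and the groups overlapped. Its log2 fold change was 0.11 (95% interval -0.16 to 0.37, limma adjusted p = 0.523) and turned negative after 2 of the scalings, without passing the test in either direction.

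The order of the levels differed between the groups. In control the 7 genes from Wnt5a, the highest in FPKM, over Dkk3, Sfrp1, Sfrp2, Frzb and Wif1 to Wnt9a formed a chain in which each overlapped the next, and Sfrp5 and then Sfrp4 and Dkk2 lay apart below them. Under ANG II, Sfrp2, Sfrp1, Frzb and Dkk3 came first, each overlapping the next, and the lowest of the 4, Dkk3, did not overlap Wnt5a in the place after it. Sfrp1, Sfrp2, Frzb and Dkk3 made up 48.0 to 59.6% of the summed FPKM of the 10 genes in control and 87.6 to 92.7% under ANG II. The summed FPKM of Sfrp1, Sfrp2 and Frzb was 1.38 to 2.32 times that of Wnt5a in control and 13.5 to 23.3 times under ANG II. The genes in these sums were grouped because they rose in the same libraries. The rise of the share and of the ratio thus follows from the calls and is no separate result.

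Levels set between genes depend on the transcript length behind FPKM, which fitted the mean over a gene's annotated transcripts. That mean was 995 bases for Sfrp2 and 2293 for Wnt5a, whose longest transcripts have 2003 and 7010 bases. Per length of the longest transcript, Sfrp2 would stand at 18.2 ± 6.97 FPKM under ANG II, below Sfrp1 at 30.5 ± 4.80, and Wnt5a at 2.05 ± 0.141 FPKM in control, in place 6 instead of place 1. The summed FPKM of Sfrp1, Sfrp2 and Frzb would then be 3.08 to 5.12 times that of Wnt5a in control and 31.1 to 50.1 times under ANG II. A ratio of FPKM within a gene does not depend on this length, but a log2 fold change of FPKM + 1 does.

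Markers of other cells moved with these genes, and their part in the results was not tested. All cardiomyocyte markers were present and summed to 50530 to 51430 FPKM in control and 38880 to 41940 in ANG II, with 2 of 10 called lower. Mitochondrial genes took 26.3 to 27.0% of fragments in control and 19.2 to 21.8% in ANG II. Of the fibroblast markers 9 of 10 were called higher (median log2 fold change 0.89), and of the activated fibroblast markers 9 of 10 (median 3.44). Their summed FPKM was 1119 to 1509 in control and 2520 to 2833 in ANG II for the former, and 161 to 261 and 1106 to 1674 for the latter. The changes of Sfrp1, Sfrp2 and Frzb lie between these medians. The fibroblast marker not called was Gsn, with a lower mean under ANG II (log2 fold change -0.496, limma adjusted p = 0.028). The activated fibroblast marker not called was Acta2 (log2 fold change -0.20, limma adjusted p = 0.385). Of all genes tested, 14.0% were called higher and 1.41% lower. Control 3 was the lowest control and ANG II 3 the lowest ANG II library in the mean log2 level of the activated fibroblast list (2.84 and 6.05), and they were also the lowest of their groups at Sfrp1, Sfrp2 and Frzb. Without both libraries the 3 log2 fold changes were 2.69, 3.10 and 2.33, and the same number of the 10 genes, 4, was called. This order was not particular to the activated fibroblast list. Control 3 and ANG II 3 were also lowest in the endocardial (3.20 and 3.71), pericyte and smooth muscle (3.91 and 4.21) and valve (0.839 and 1.89) lists. In the fibroblast list the lowest ANG II library was 2 (6.94), where Sfrp1 and Sfrp2 were highest.

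Markers of atria and valves differed among libraries of a group. The atrial myosin Myl7 measured 19.8, 21.1, 0.205 and 6.76 FPKM in the controls and 51.1, 28.2, 89.6 and 21.7 FPKM in the ANG II mice, and the atrial list was lowest in control 3, where Dkk3 was also lowest. The atrial list summed to 7.72 to 58.5 FPKM in control and 195 to 339 FPKM in the ANG II mice, with 2 of 4 tested genes called higher, Sln and Nppa, and Bmp10 too low to test. Nppa, a natriuretic peptide gene that ventricular cardiomyocytes also express under load, made up 6.56 to 11.1 FPKM of the sum in control and 108.5 to 160.9 FPKM under ANG II, and without it the list summed to 1.15 to 48.8 and 52.5 to 230.5 FPKM. The call of Sln held in 11 of 20 alternatives, while that of Nppa held in all 20. Sln lost it without control 3, control 4, ANG II 1 or ANG II 3 and without control 3 and ANG II 3 together. It also lost it with a pseudocount of 0.1, with no filter, and after median-of-ratios scaling or quantile normalization. Within ANG II, Dkk3 did not order the libraries as that list did. The valve list (2 of 6 called higher, Fmod and Prg4, the latter not without control 3 and ANG II 3) ran from control 3 over controls 1 and 2 to control 4, at 7.66, 16.2, 19.7 and 33.6 summed FPKM, which is the order of Wif1 and of Dkk3 among controls. Under ANG II that list summed to 43.0 to 79.1 FPKM, above every control, while Wif1 was no higher than in control. Within ANG II the valve list was lowest in library 3 and Wif1 in library 2, at 1.61 FPKM. The activated fibroblast list ordered the controls in the same way as the valve list, at 161, 172, 214 and 261 summed FPKM. Macrophage markers were called higher at 8 of 8 genes, endothelial markers at 1 of 8 and endocardial markers at 2 of 5. Of the pericyte and smooth muscle markers 3 of 8 were called higher and 1 lower, and none of 7 mesothelial and epicardial or 5 tested adipocyte markers was called. Beside these marker counts, 14.0% of all genes tested were called higher and 1.41% lower, and the endothelial count is near the former share.

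**Figure D3:**
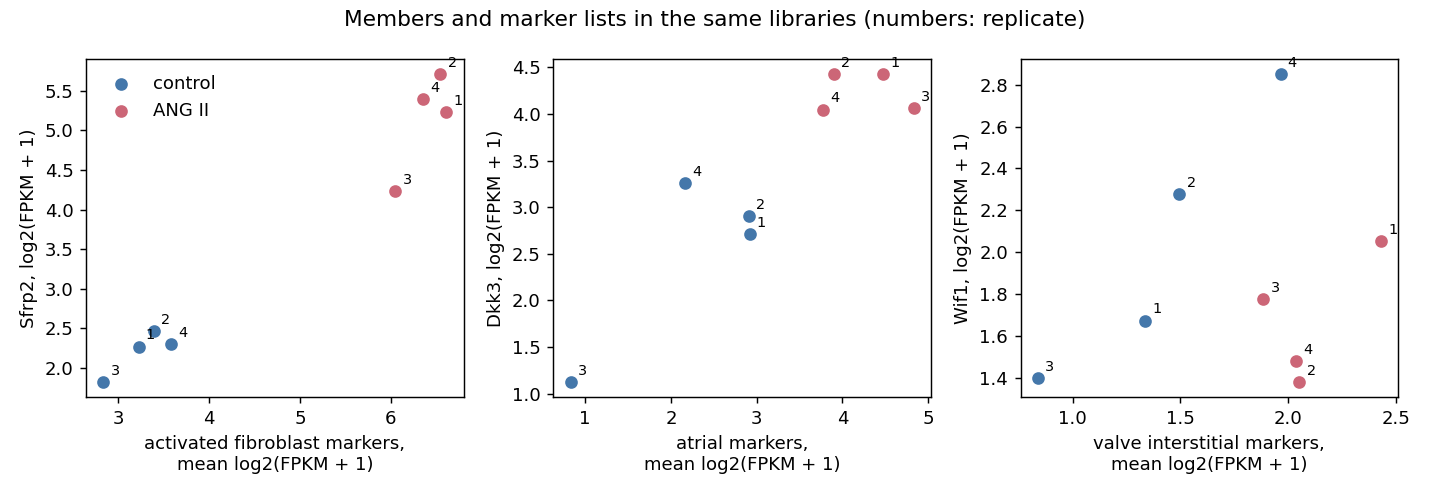
Log2(FPKM + 1) of Sfrp2, Dkk3 and Wif1 against the mean log2(FPKM + 1) of a marker list in the same library, with 4 control (blue) and 4 ANG II (red) libraries numbered by replicate. Replicate 3 is lowest in each group on both axes of the Sfrp2 panel, control 3 is lowest on both axes of the Dkk3 panel, and the ANG II libraries of the Wif1 panel lie at 1.38 to 2.05 on the Wif1 axis.

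The rest of the pathway was read from lists of 101 further Wnt genes, of which 79 were tested. Of these, 14 were called higher and 2 lower, against the 14.0% and 1.41% of all genes given above, with a median log2 fold change of 0.19. After median-of-ratios scaling the split was 11 higher and 6 lower. Of 17 other Wnt ligands 7 were tested and 1 was called. Wnt9b, a ligand known from kidney and endocardium, averaged 0.348 ± 0.258 FPKM in the controls and 1.52 ± 0.638 FPKM under ANG II (log2 fold change 0.89, limma adjusted p = 0.00489). Of 4 genes for ligand release and inactivation, Wls, the carrier that brings Wnts to the cell surface, was called, at 22.0 ± 2.63 and 33.8 ± 1.06 FPKM (SD, n = 4 each), though not under 3 of the scalings. Of 10 other secreted inhibitors and R-spondins, 4 were tested and none was called. Dkk1 was at no more than 0.0539 FPKM in any library, and Rspo3 had a log2 fold change of -0.04 (limma adjusted p = 0.749). Sost, an Lrp-binding inhibitor named after its values were seen, had one of -0.39 (limma adjusted p = 0.068) and was called lower only after quantile normalization and with voom.

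Among receptors and co-receptors 6 of 21 tested genes rose and 1 fell, against 14.0% and 1.41% of all genes. Ptk7, a co-receptor of the planar cell polarity branch, went from 1.00 ± 0.179 to 3.60 ± 0.810 FPKM and Fzd2 from 1.24 ± 0.423 to 4.01 ± 1.07 FPKM (SD, n = 4 each), with log2 fold changes of 1.19 and 1.15. Fzd1 (0.98) and Ror2 (0.89), a receptor of Wnt5a, also rose. The fall was that of Lgr6, an R-spondin receptor named after its values were seen, from 15.1 ± 2.68 to 8.86 ± 0.769 FPKM (log2 fold change -0.69, limma adjusted p = 0.0013). Of the co-receptors that Dickkopf proteins bind, Lrp6 had a log2 fold change of 0.11 (limma adjusted p = 0.178). Lrp5, named after its values were seen, had one of 0.30 (limma adjusted p = 0.0152), with no overlap between groups and below the fold threshold.

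None of 18 intracellular components was called, among them β-catenin (Ctnnb1) with a log2 fold change of 0.17 (limma adjusted p = 0.0376), of which an opposite-strand gene covers 14.6% of the exon length. By limma 6 of the 18 had an adjusted p-value under 0.05, against 33.3% of all genes. Tcf7 was called with voom and without control 1 or ANG II 1, and Pygo2 without control 1 or ANG II 2. Both had higher means under ANG II and were named after their values were seen. Of 9 tested canonical target genes 5 rose and 1 fell, against 14.0% and 1.41% of all genes. Ccn5, listed as Wisp2, went from 2.39 ± 0.339 to 22.0 ± 4.45 FPKM and Ccn4, listed as Wisp1, from 1.28 ± 0.533 to 11.7 ± 2.90 FPKM (SD, n = 4 each). Both are matricellular proteins, with log2 fold changes of 2.75 and 2.48. Nkd2, a feedback inhibitor that binds Dishevelled, rose by 2.08 and Myc by 0.84 on the log2 scale. The fifth gene that rose, Bambi, also named after its values were seen, had a log2 fold change of 0.51 and lost its call without control 2, control 4, ANG II 1 or ANG II 2 and under 3 of the scalings. Axin2, the feedback gene most often read as a marker of β-catenin activity, was at 1.71 ± 0.404 and 2.38 ± 0.524 FPKM (log2 fold change 0.32, limma adjusted p = 0.134), and Lef1 was too low to be tested. The gene that fell, named after its values were seen, was Tnfrsf19 (log2 fold change -0.58, limma adjusted p = 0.0139), whose call was lost without control 1 and without control 3 and ANG II 3 together. In the planar cell polarity and calcium list 1 of 16 tested genes was called, against 15.4% of all genes in either direction. This was Nfatc4, with a log2 fold change of 0.89. By limma 10 of the 16 had an adjusted p-value under 0.05, against 33.3% of all genes. Of these 10, 5 had higher means under ANG II (Nfatc4, Nfatc1, Nfatc2, Vangl1 and Prickle2) and 5 had lower means (Camk2a, Celsr2, Daam1, Camk2d and Camk2g), all but Nfatc4 named after their values were seen. Camk2a, a calcium/calmodulin-dependent kinase subunit, did not reach the fold threshold, at 21.9 ± 1.51 and 15.2 ± 0.808 FPKM (SD, n = 4 each), a log2 difference of -0.49 (limma adjusted p = 4.55e-04). Camk2a, Celsr2, Daam1 and Camk2b, the last also named after its values were seen, were called lower after both median-of-ratios scaling and quantile normalization.

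**Figure D4:**
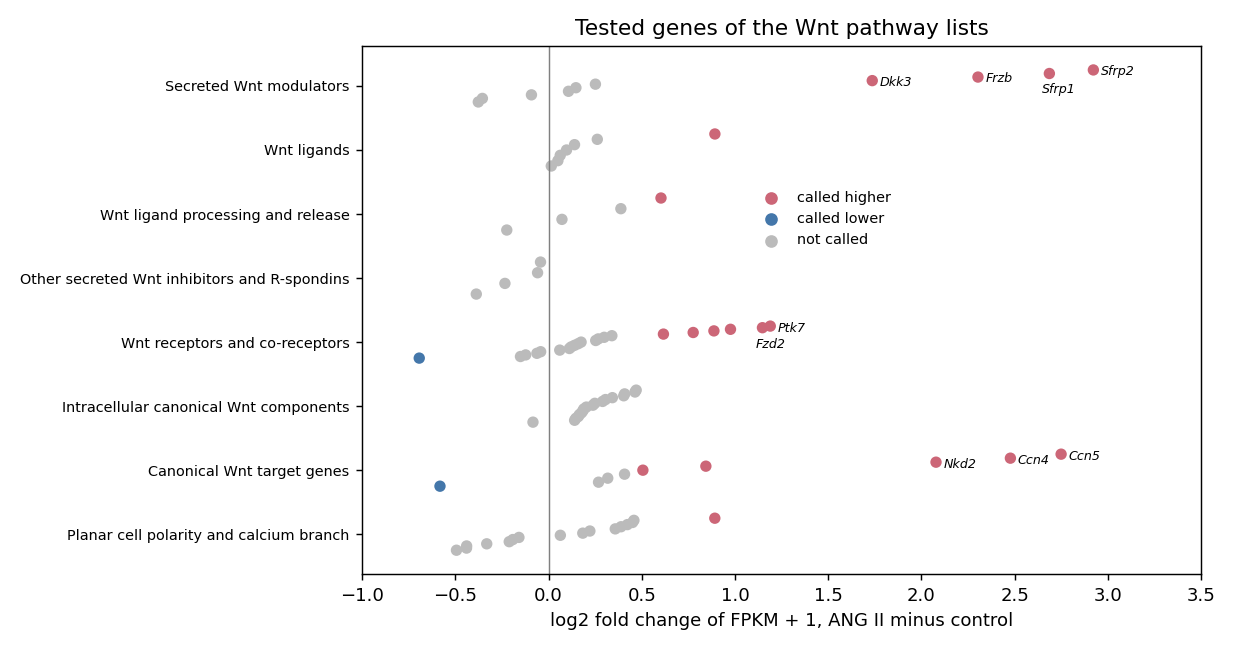
Log2 fold change of FPKM + 1 between ANG II and control for each tested gene of the 10 secreted modulators and of the other Wnt pathway lists, coloured by call, with names where the value is past 1. The named points are Sfrp2, Sfrp1, Frzb and Dkk3 among the modulators, Fzd2 and Ptk7 among receptors, and Ccn5, Ccn4 and Nkd2 among targets.

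The genes whose pattern over the 8 libraries was most like that of Sfrp2, by the mean absolute difference in log2(FPKM + 1) after each gene's control mean was subtracted, were Mfap4 (0.184), Col8a2 (0.189) and Ptn (0.217), out of 12825 candidates averaging 1 FPKM or more. Mfap4 and Col8a2 encode matrix proteins and Ptn a heparin-binding growth factor. Their log2 fold changes were 2.91, 2.97 and 3.15, beside 2.92 for Sfrp2. For Wif1, the gene with the lowest log2 fold change of the 10, they were H2-T24 (0.228), Ifi208 (0.229) and Acta2 (0.235), with log2 fold changes of -0.40, -0.27 and -0.20. The change under ANG II is part of the distance by which these genes were picked. Fold changes near those of Sfrp2 and Wif1 thus follow from the choice.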

How the data were processed

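Left ventricle libraries of 8 mice (4 control, 4 ANG II) were analysed from FPKM values that the authors deposited, 1 column per library. The submitters' processing notes name HISAT, Bowtie2 and RSEM, with no version or role; genome build, annotation and strand setting were not given in the sources used here. Positions and transcript lengths came from GENCODE M21 (GRCm38), upstream windows from RefSeq (GRCm38.p6). Values times mean transcript length fell on whole fragments (within 0.05) for 98.3% of values under 60 fragments, which gave depth per library. Genes averaging 0.1 FPKM or more were tested with limma 3.58.1 (R 4.3.3) on log2(FPKM + 1) with a variance trend, all 8 libraries and no covariate, two-sided, with Benjamini-Hochberg adjustment. The study names limma and both thresholds; the log base, pseudocount and filter were choices made here. The log2 scale with a pseudocount of 1 understates changes of low genes.

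The 10 genes and all lists were chosen with earlier results of these data known. Outside the 10, text names up to 4 called genes per pathway list with the largest change, a few fixed genes, and the genes most like Sfrp2 and Wif1; exceptions are marked. Labels do not say more of the replicates than that they are separate ventricles, so p-values measure the spread between these samples. Intervals on fragments cover counting error only. Alternatives were other pseudocounts, filters, scalings and thresholds, voom, a replicate block and leaving out libraries. The fit was tested on simulated data. Tables and plots were made in Python 3.11.15 (scipy 1.17.1, pandas 2.3.3, matplotlib 3.10.9).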

Additional observations from a re-analysis of the deposited data

How the results depend on the processing

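Of 197 values of the 10 genes under 20 alternatives, 191 kept their direction and their side of the thresholds. The calls of Sfrp1, Sfrp2, Frzb and Dkk3 held in all 20, with log2 fold changes of 2.43 to 2.98, 2.66 to 3.24, 2.02 to 2.60 and 1.28 to 2.07. Calls were gained by Wnt5a after 2 scalings and with no fold threshold and by Dkk2 with voom on recovered fragments, and Wnt9a reversed to -0.050 after median-of-ratios scaling and to -0.21 after quantile normalization; the cause was not tested. The median of all genes moved from 0.15 to 0.01 and -0.04 under these scalings, and the calls over all genes from 2708 higher and 273 lower to 1700 and 781, and 1413 and 986. A fold threshold of 1 left 795 genes and 5 other Wnt pathway genes called, no fold threshold 6447 and 35, and voom 3997 and 27. With the replicate block 4 of the 10 genes, 16 other Wnt pathway genes and 2968 of all genes were called, against 4, 16 and 2981 without it. Over all genes tested, same-numbered libraries did not deviate together (correlations from -0.032 to 0.062). The block lowered the SE of Sfrp1 (0.136 to 0.0752), Sfrp2 (0.279 to 0.138), Frzb (0.184 to 0.135) and Dkk3 (0.385 to 0.304). It raised that of Sfrp4, Sfrp5, Wif1, Dkk2, Wnt5a and Wnt9a. The sources used here do not say if the numbers pair the samples, and this was not settled by these values. Leaving out each library in turn left 4 of the 10 genes called each time, 15 to 20 other pathway genes and 2722 to 3078 genes overall. Leaving out control 3 and ANG II 3 together was chosen after seeing the data; Wnt5a then had an adjusted p of 0.0705 by limma. Depth limits Sfrp4, Dkk2 and Sfrp5, with 1 to 26 fragments per library.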
